A study of Homo sapiens with 9 samples.

Results

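The high mobility group (HMG) proteins are abundant, non-histone chromatin proteins that fall into HMGN, HMGA and HMGB families. HMGN proteins bind nucleosomes and compete with linker histones, HMGA proteins hold AT-hooks that contact the minor groove of AT-rich DNA, and HMGB proteins bend DNA with their HMG boxes. Levels of several of them are known to be high in tumours, hepatocellular carcinoma (HCC) included. Described here are the 10 genes HMGN1 to HMGN5, HMGA1, HMGA2 and HMGB1 to HMGB3, taken by gene symbol from 32906 listed genes. HMGN5 was chosen by its FPKM, which differed strongly between 2 siRNAs, and the others by family name. The values of HMGN5 are therefore a description and carry no test.

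The study asked what KDM4C, a histone lysine demethylase, does in HCC. Huh7 cells were transfected with a scrambled control (Scramble) or with siRNAs against KDM4C (Si-KDM4C#1 and Si-KDM4C#2), and RNA was taken 48 hours later. Each of the 3 groups held 3 libraries, 9 in all, and the labels name no other treatment. The libraries held 14597496 to 18058535 fragments, as recovered from the deposited FPKM (fragments per kilobase of gene, scaled to the total of the library), and replicates of a group differed by more than the counting noise (chi-square per degree of freedom of 2.69 to 6.30). Nothing in the labels says that replicates came from separate cultures, so p-values measure only the spread between these libraries, which may be technical.

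KDM4C itself stood at 4.69 ± 0.167 FPKM in Scramble (SD, n = 3), at 1.14 ± 0.0395 with Si-KDM4C#1 and at 0.287 ± 0.0535 with Si-KDM4C#2, so it was lower in all 6 siRNA libraries. Huh7 is a human HCC line that is known for liver proteins such as albumin and alpha-fetoprotein. Of 12 hepatocyte markers, 9 were listed, and all 9 were under 1 FPKM in every library. HNF4A reached 0.128 FPKM at most and AFP 0.0203, while ALB was not listed. The summed level of the 9 was 0.14 to 0.261 FPKM in the Scramble libraries, 0.0483 to 0.149 in those of Si-KDM4C#1 and 0.141 to 0.271 in those of Si-KDM4C#2. The defining markers of the labelled cell type were thus near 0, and whether this bears on any result below was not tested. The libraries are bulk RNA, in which fewer cells of a type and less RNA per cell cannot be told apart.

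The siRNA target sites are shown first, because stretches of the HMG mRNAs share letters with 1 of them. An siRNA guide strand can also pair with other mRNAs through its seed, guide positions 2 to 8, in the manner of a microRNA. The target sites were read from the KDM4C transcript of GENCODE release 29 (GRCh38), 5′ to 3′, with the 7 bases that pair with the seed in capitals. Guides were taken as the full complement of these sites, and the other strand of each siRNA was not searched. The site of Si-KDM4C#1 lies in coding exon 14, chr9:7013790-7013808 (+), and that of Si-KDM4C#2 in coding exon 8, chr9:6893107-6893125 (+).
Si-KDM4C#1 target: agatagcagcaATGAAGAa
Si-KDM4C#2 target: gctggagaattCATGATCa

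The motif of Si-KDM4C#1, ATGAAGA, was searched on the mRNA strand of the longest protein-coding transcript of each gene. HMGN5 held 4 matches, all in coding sequence, and they are shown because HMGN5 is the gene whose level differed most between the siRNAs among the 10. The first spans the junction of exons and lies within chrX:81116331-81118439, and the others lie in exon 7 at chrX:81115117-81115135, chrX:81115093-81115111 and chrX:81114859-81114877, all on the minus strand. Of the 19 bases of the target, 9, 13, 10 and 10 are identical in these stretches. The 7 bases of the motif are among them in each, because the stretches were picked for it. Whether the rest exceed what other stretches share was not tested.
HMGN5 match 1: gttcaaggaaaATGAAGAc
HMGN5 match 2: agaagtaaaaaATGAAGAa
HMGN5 match 3: tcagaaagaagATGAAGAa
HMGN5 match 4: tggaaaagagaATGAAGAt

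HMGB2 held 3 matches in coding exon 5, at chr4:173332110-173332128, chr4:173332089-173332107 and chr4:173332083-173332101 (minus strand), with 9, 9 and 11 of 19 identical bases, the 7 of the motif included. They are shown as the HMGB gene with the largest difference between the siRNAs, and the last 2 stretches overlap.
HMGB2 match 1: ggaagaagaagATGAAGAt
HMGB2 match 2: ggaggaagaggATGAAGAt
HMGB2 match 3: agaggatgaagATGAAGAa

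HMGB1 held 5 matches, 4 of them in coding exon 5 and 1 in the 3′ UTR. HMGN2 held 1 in its 3′ UTR, HMGB3 held 1 in coding sequence and HMGA2 held 2 in its 3′ UTR. HMGN1, HMGN3, HMGN4 and HMGA1 held 0. The motif of Si-KDM4C#2, CATGATC, was found in 0 of the 10 transcripts. Of the 19684 transcripts searched, 44.3% held at least 1 ATGAAGA and 3.96% held 4 or more, and 18.6% held at least 1 CATGATC. Among the 3957 transcripts within 20% of the length of HMGN5 (2126 nucleotides), 32.5% held at least 1 ATGAAGA, 2.50% held 3 or more and 0.708% held 4 or more. A match is a description of the letters, and whether a guide acts there was not tested.

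HMGN5 encodes the HMGN protein with a long acidic tail and lies on the X chromosome (chrX:81113701-81201942, minus strand). It stood at 30.7, 32.7 and 34.2 FPKM in the Scramble libraries. With Si-KDM4C#1 it stood at 3.80, 3.66 and 3.12 FPKM, and with Si-KDM4C#2 at 45.3, 48.7 and 51.0 FPKM. The Si-KDM4C#1 libraries were the low ones, the Si-KDM4C#2 libraries the high ones, and no groups overlapped. The means were 32.6 ± 1.76, 3.53 ± 0.362 and 48.3 ± 2.90 FPKM (SD, n = 3). The mean was thus 9.23-fold lower with Si-KDM4C#1 than in Scramble, 1.48-fold higher with Si-KDM4C#2 than in Scramble, and 13.7-fold higher with Si-KDM4C#2 than with Si-KDM4C#1. On the log2(FPKM + 1) scale these differences were -2.89, 0.56 and 3.45. The counts behind them were 3795, 416 and 5629 fragments per group, far above the 3 fragments taken as the floor. HMGN5 has 0 overlapping annotated genes and 0 listed pseudogene rows.

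**Figure D1:**
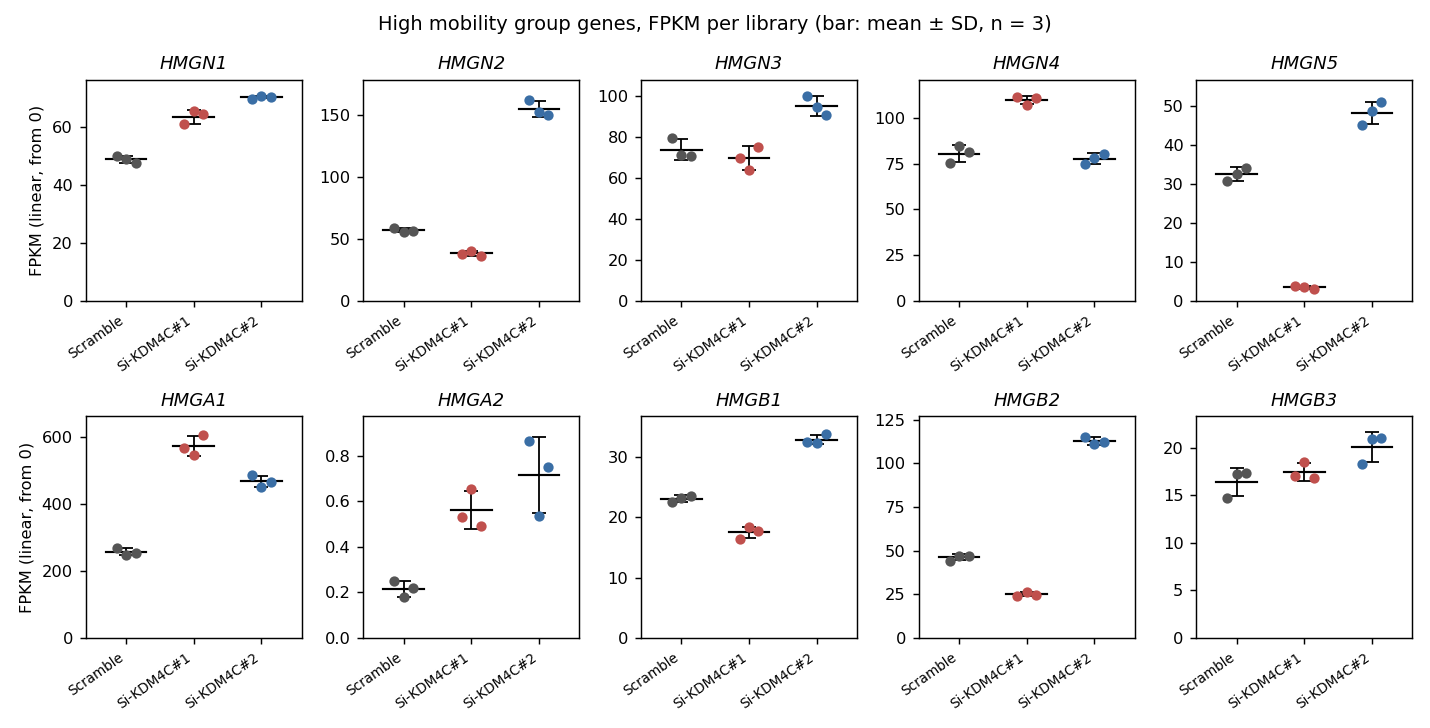
FPKM of the 10 HMG genes (vertical axis, linear and from 0, a scale per gene) in the 9 libraries by group, with points for libraries and bars for the mean ± SD (n = 3). HMGN5 stands at 3.12 to 3.80 FPKM in the Si-KDM4C#1 libraries and at 30.7 FPKM or more in all others, while HMGN2 and HMGB2 are lowest with Si-KDM4C#1 and highest with Si-KDM4C#2.

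The protein-coding gene next to HMGN5 at higher coordinates is SH3BGRL, which encodes a small thioredoxin-fold protein and starts at the adjoining base on the plus strand (chrX:81201943-81298547), head to head with HMGN5. It stood at 27.4, 31.7 and 32.5 FPKM in Scramble, at 7.57, 7.23 and 7.64 with Si-KDM4C#1 and at 27.2, 31.9 and 28.8 with Si-KDM4C#2. SH3BGRL was lower with Si-KDM4C#1, where all libraries were under those of the other groups, while Scramble and Si-KDM4C#2 overlapped. On the log2 scale the differences from Scramble were -1.89 (SE 0.07, Benjamini-Hochberg adjusted p = 3.84e-08, limma-trend over 14363 genes) and -0.06 (95% interval -0.22 to 0.11, adjusted p = 0.529, limma-trend). Its transcript held 2 ATGAAGA matches, 1 of them coding.

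On the other side lies BRWD3, a bromodomain gene 304013 bases from HMGN5 (chrX:80670854-80809688, minus strand). It stood at 8.61 ± 0.298 FPKM in Scramble, at 5.07 ± 0.603 with Si-KDM4C#1 and at 7.60 ± 0.286 with Si-KDM4C#2 (SD, n = 3). It fell by 0.67 on the log2 scale with Si-KDM4C#1 (adjusted p = 2.53e-05, limma-trend), and with Si-KDM4C#2 the difference was -0.16 (adjusted p = 0.0821, limma-trend). BRWD3 also held 2 matches. Both neighbours and HMGN5 were thus lower with Si-KDM4C#1, and the part of the location or of the matches in this was not tested.

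**Figure D2:**
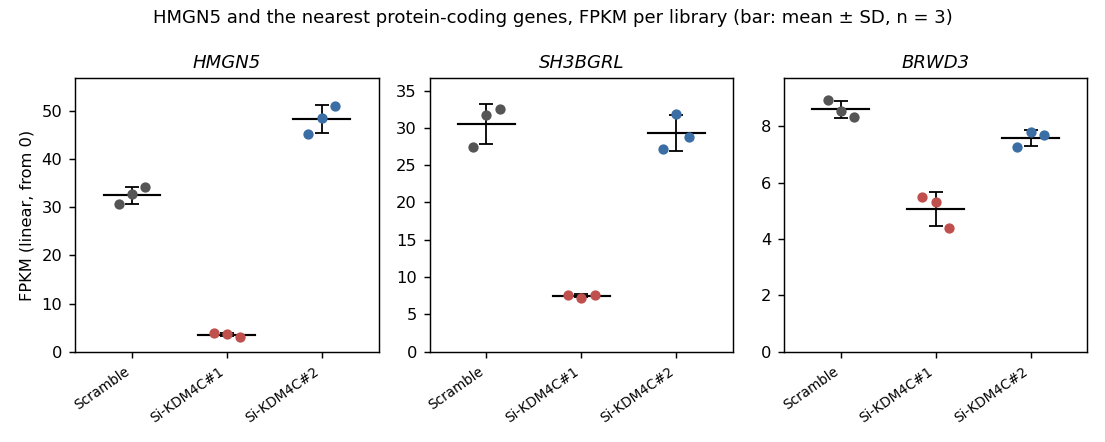
FPKM (vertical axis, linear and from 0) of HMGN5, of SH3BGRL, which starts at the adjoining base, and of BRWD3, the nearest protein-coding gene on the other side, in the 9 libraries by group. Points are libraries and bars the mean ± SD (n = 3), and all 3 genes are lowest in the Si-KDM4C#1 libraries.

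Across the 9 libraries, the genes with the most similar pattern to HMGN5 were found by Pearson correlation of log2(FPKM + 1), among 2177 genes whose group means span at least 1. The 9 libraries fall into 3 groups, so the correlation mostly sets group means against each other, and 99 genes had r over 0.99. The 5 highest were SMS (spermine synthase), ANP32B (an acidic histone chaperone), GNPNAT1 (an enzyme of UDP-GlcNAc synthesis), EIF5B (a translation initiation factor) and PPM1G (a protein phosphatase), each with r from 0.998 to 0.999. ANP32B stood at 103 ± 0.525 FPKM in Scramble, at 20.9 ± 0.742 with Si-KDM4C#1 and at 144 ± 2.90 with Si-KDM4C#2 (SD, n = 3). The 5 transcripts held 1, 8, 1, 6 and 4 ATGAAGA matches in that order. Of the tested genes with a searched transcript, 48.1% held 1 or more and 4.87% held 4 or more. The 5 were picked for their likeness to HMGN5, so their low level with Si-KDM4C#1 follows from the pick. Matches in the other genes with r over 0.99 were not counted, and the part of the matches was not tested. Among the HMG genes r with HMGN5 was 0.90 for HMGB1, 0.88 for HMGB2, 0.81 for HMGN2, 0.68 for HMGN3, 0.31 for HMGB3, -0.10 for HMGN1, -0.10 for HMGA2, -0.58 for HMGA1 and -0.97 for HMGN4.

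The other 9 genes were compared in the fit over all genes, and 8 of them averaged 1 FPKM or more in some group and were tested. HMGA2 did not and is given apart. With Si-KDM4C#1, 6 of the 8 passed an FDR of 0.05 against Scramble, with HMGN1, HMGN4 and HMGA1 higher and HMGN2, HMGB1 and HMGB2 lower. This stands beside 65.7% of all tested genes past that limit (31.7% higher and 33.9% lower). Of the 8, 1 (HMGA1) also passed a fold change of 2, beside 8.87% of all genes. With Si-KDM4C#2, 7 of the 8 passed, all of them higher, beside 59.4% of all genes (34.4% higher and 25.0% lower). Of these 7, HMGN2 and HMGB2 passed the fold change as well, beside 4.89% of all genes. These 2 shares over all genes depend on the processing: the 1274 and 703 genes past both limits became 2302 and 1443 with a pseudocount of 0.1, and 3104 and 2054 with limma voom. The median difference of the 8 on the log2 scale came to -0.00 for Si-KDM4C#1 and 0.51 for Si-KDM4C#2, beside -0.03 and 0.06 over all genes. The libraries did not overlap between the groups for 6 of the 8 with Si-KDM4C#1 and 7 of the 8 with Si-KDM4C#2, beside 69.4% and 65.3% of all genes. The same Scramble libraries serve in both comparisons. With Si-KDM4C#1 the count of 6 of 8 lies near the share of all genes, so it says little that is particular to the HMG genes. With Si-KDM4C#2, 7 of the 8 were higher, beside 34.4% of all genes. This count depends on the processing: after quantile normalization HMGB3 did not pass the FDR limit, and HMGN4 passed it as lower. Whether these 8 genes depart from the other genes was not tested.

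Compared directly, the siRNAs differed in 7 of the 8, beside 62.4% of all genes (35.9% higher with Si-KDM4C#2 and 26.5% lower). The libraries of these 7 did not overlap, beside 69.3% of all genes. HMGN1, HMGN2, HMGN3, HMGB1 and HMGB2 were higher with Si-KDM4C#2, and HMGN4 and HMGA1 were lower. HMGN2 and HMGB2 passed the fold change of 2 too, beside 6.91% of all genes.

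**Figure D3:**
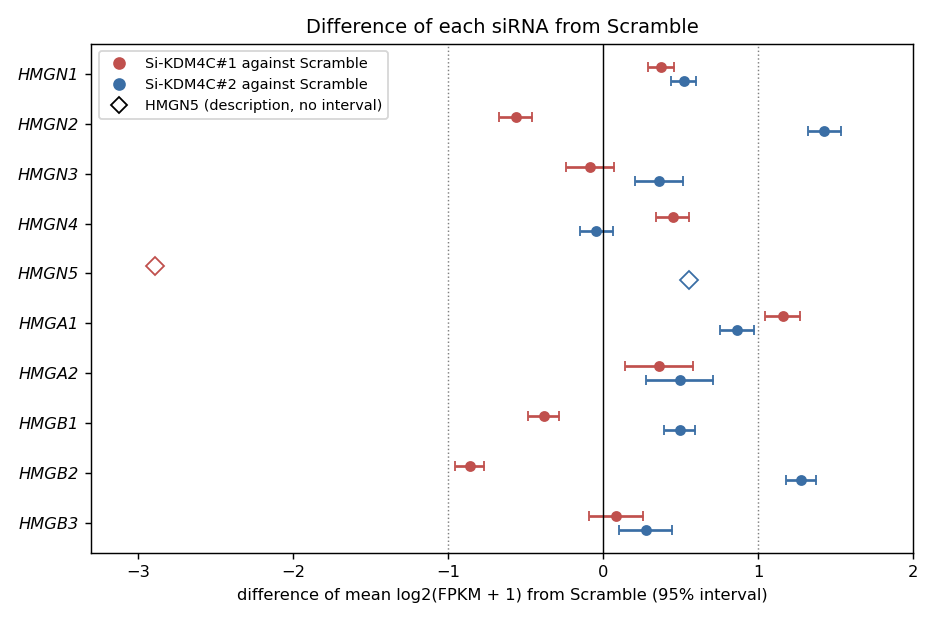
Difference of the mean log2(FPKM + 1) of each siRNA from Scramble (horizontal axis) for the 10 HMG genes, with 95% intervals from limma-trend. Open diamonds give HMGN5 as a description without an interval, and dotted lines mark a fold change of 2. HMGN2, HMGB1 and HMGB2 passed an FDR of 0.05 on opposite sides of 0 with the 2 siRNAs. HMGN3, HMGN4 and HMGN5 also lie on opposite sides, HMGN3 near 0 with Si-KDM4C#1 and HMGN4 near 0 with Si-KDM4C#2.

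HMGN1 and HMGN2 are the widely expressed nucleosome-binding members. HMGN1 (chr21:39342315-39349647, minus strand) stood at 50.0, 48.9 and 47.6 FPKM in Scramble, at 61.0, 65.5 and 64.5 with Si-KDM4C#1 and at 69.9, 70.9 and 70.5 with Si-KDM4C#2. The groups did not overlap, and both siRNAs were above Scramble. HMGN1 rose by 0.37 (SE 0.04, adjusted p = 1.19e-05) and 0.52 (SE 0.04, adjusted p = 2.24e-06, limma-trend) on the log2 scale, 1.30-fold and 1.43-fold. The siRNAs differed by 0.14 (adjusted p = 0.00612, limma-trend). With limma voom on the recovered fragments that last difference was 0.02 (adjusted p = 0.72).

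HMGN2 (chr1:26472450-26475972, plus strand) stood at 58.8, 55.7 and 56.3 FPKM in Scramble. With Si-KDM4C#1 it stood at 37.9, 40.4 and 36.3 FPKM, below every Scramble library, and with Si-KDM4C#2 at 162, 153 and 149.9 FPKM, above every other library. It fell by 0.56 with Si-KDM4C#1 (SE 0.05, adjusted p = 4.41e-06, limma-trend) and rose by 1.43 with Si-KDM4C#2 (SE 0.05, adjusted p = 4.16e-08, limma-trend), or 2.69-fold. HMGN2 thus moved in opposite directions with the siRNAs, which differed by 1.99 (95% interval 1.88 to 2.10, adjusted p = 5.13e-09, limma-trend).

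HMGN3, a member linked to thyroid hormone receptor, lies at chr6:79201245-79234738 on the minus strand. It stood at 79.6, 71.0 and 70.7 FPKM in Scramble, at 69.7, 63.8 and 75.2 with Si-KDM4C#1 and at 99.9, 94.7 and 90.4 with Si-KDM4C#2. Only the Si-KDM4C#2 libraries stood apart. HMGN3 rose by 0.36 with Si-KDM4C#2 (adjusted p = 0.00139, limma-trend), and with Si-KDM4C#1 the difference was -0.08 (95% interval -0.24 to 0.07, adjusted p = 0.3, limma-trend). After quantile normalization the latter was -0.27 (adjusted p = 0.00371, limma-trend). HMGN3-AS1 overlaps it on the other strand and stood at 0.408 to 0.798 FPKM as group means. Whether the counting used strand is not given in the sources used here, so reads of the pair cannot be told apart.

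HMGN4, a gene without introns in its coding part that arose from HMGN2, lies at chr6:26538405-26546254 on the plus strand. It stood at 75.2, 84.4 and 81.2 FPKM in Scramble, at 111, 107 and 111 with Si-KDM4C#1 and at 74.6, 78.0 and 80.5 with Si-KDM4C#2. HMGN4 rose by 0.45 with Si-KDM4C#1 (SE 0.05, adjusted p = 2.22e-05, limma-trend), where no library overlapped the others. Scramble and Si-KDM4C#2 overlapped, with a difference of -0.05 (95% interval -0.15 to 0.06, adjusted p = 0.436, limma-trend), which became -0.17 after quantile normalization (adjusted p = 0.0143). With Si-KDM4C#1 the direction of HMGN4 was thus the reverse of that of HMGN2, which was low there. With Si-KDM4C#2 HMGN2 rose, while the small difference of HMGN4 passed the limit only after quantile normalization. Reads that the 2 genes could share were not tested.

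Added up, the HMGN genes stood at 292 ± 2.16 FPKM in Scramble, at 285 ± 4.87 with Si-KDM4C#1 and at 446 ± 4.73 with Si-KDM4C#2 (SD, n = 3). The libraries ran from 290.1 to 294 FPKM in Scramble and from 280.4 to 290.0 FPKM with Si-KDM4C#1, right beside each other, while the makeup of the sum differed. HMGN5 made up 11.1% of it in Scramble, but 1.24% with Si-KDM4C#1, and 10.8% with Si-KDM4C#2. HMGN2 made up 19.5%, 13.4% and 34.7%, and HMGN4 27.5%, 38.6% and 17.4%. Without HMGN5 the sums were 259.9 ± 3.90, 281 ± 5.19 and 398 ± 7.61 FPKM.

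HMGA1, an AT-hook protein that is scarce in most adult tissues and abundant in many tumours, had the highest level of the 10 genes in every group (chr6:34236873-34246231, plus strand). It stood at 268, 248 and 254 FPKM in Scramble. With Si-KDM4C#1 it stood at 569, 547 and 607 FPKM and with Si-KDM4C#2 at 486, 452 and 467 FPKM, so that all siRNA libraries were above Scramble and the siRNA groups did not overlap. HMGA1 rose by 1.16 (SE 0.05, 2.23-fold, adjusted p = 6.54e-08) and 0.86 (SE 0.05, 1.82-fold, adjusted p = 6.38e-07, limma-trend) on the log2 scale. The rise was smaller with Si-KDM4C#2, with a difference of -0.29 (adjusted p = 0.000558, limma-trend).

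HMGA2 is the fetal AT-hook gene and a textbook target of the let-7 microRNAs (chr12:65824131-65966295, plus strand). It was low, at 0.249, 0.180 and 0.216 FPKM in Scramble, at 0.532, 0.654 and 0.493 with Si-KDM4C#1 and at 0.863, 0.534 and 0.750 with Si-KDM4C#2. All siRNA libraries were above Scramble, and the siRNA groups overlapped. The sums were 159, 417 and 531 fragments, and the means with the siRNAs were 2.60-fold and 3.33-fold that of Scramble. In a fit over all listed genes the differences were 0.36 (adjusted p = 0.0211) and 0.49 (adjusted p = 0.0053, limma-trend), and adding 1 to such low values makes them small. Without Scramble replicate 2 the former had an adjusted p of 0.0584, and without Si-KDM4C#1 replicate 2 of 0.0615 (limma-trend). With limma voom on the recovered fragments they were 1.43 (adjusted p = 4.07e-07) and 1.65 (adjusted p = 2.12e-08). The siRNAs differed by 0.13 (95% interval -0.08 to 0.35, adjusted p = 0.406, limma-trend). The annotation places 4 other genes over HMGA2, and reads of overlapping genes cannot be told apart.

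HMGB1 is the ubiquitous member of its family, which is also released from dying cells as an alarm signal (chr13:30456704-30617597, minus strand). It stood at 22.5, 23.3 and 23.6 FPKM in Scramble, at 16.4, 18.3 and 17.8 with Si-KDM4C#1 and at 32.6, 32.4 and 33.9 with Si-KDM4C#2. No groups overlapped. HMGB1 fell by 0.38 with Si-KDM4C#1 (SE 0.05, adjusted p = 4.65e-05, limma-trend) and rose by 0.49 with Si-KDM4C#2 (SE 0.05, adjusted p = 1.24e-05, limma-trend). The siRNAs differed by 0.88 (adjusted p = 2.58e-07, limma-trend).

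HMGB1 has 20 listed pseudogene rows, near-copies that can share its reads, and they held 30.1% of the fragments of HMGB1 and its copies together in Scramble, against 30.5% with Si-KDM4C#1 and against 33.8% with Si-KDM4C#2. HMGB1P5 (chr3:22381819-22382929) and HMGB1P6 (chr15:71164770-71165415), named after their values were seen, stood above HMGB1 per length. HMGB1P5 stood at 33.8 ± 1.05, 28.3 ± 1.08 and 66.7 ± 1.87 FPKM, and HMGB1P6 at 57.5 ± 3.90, 40.6 ± 3.96 and 83.2 ± 1.71 FPKM (SD, n = 3) in Scramble, Si-KDM4C#1 and Si-KDM4C#2. Both rows were ordered like HMGB1, and how the counting split the reads between them was not tested. For the other members the pseudogene rows held at most 2.73% of the summed fragments of a group.

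**Figure D4:**
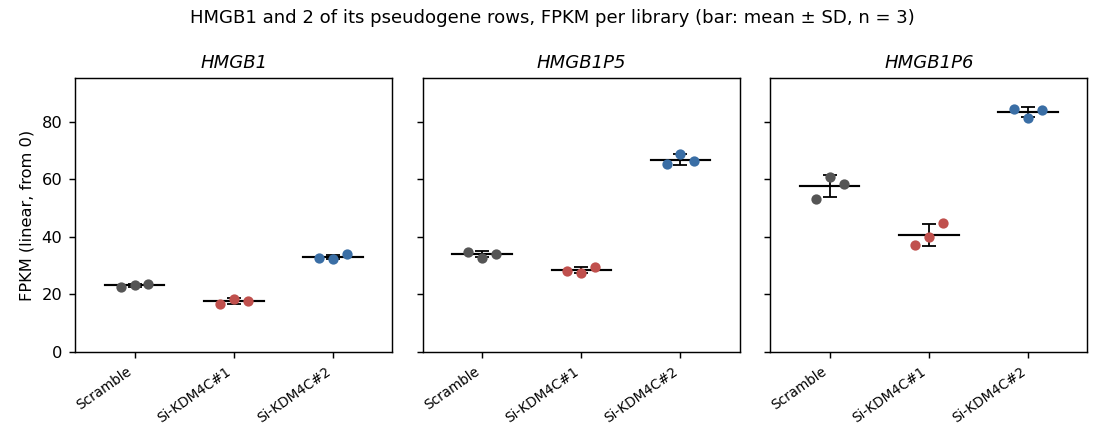
FPKM (vertical axis, linear and from 0, a shared scale) of HMGB1 and of the pseudogene rows HMGB1P5 and HMGB1P6 in the 9 libraries by group, with bars for the mean ± SD (n = 3). All 3 rows are lowest with Si-KDM4C#1 and highest with Si-KDM4C#2, and both pseudogene rows stand above HMGB1 in each group.

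HMGB2, the member tied to dividing cells, lies at chr4:173331695-173335125 on the minus strand. It stood at 44.1, 47.0 and 47.1 FPKM in Scramble, at 23.9, 26.2 and 24.7 with Si-KDM4C#1 and at 115, 111 and 113 with Si-KDM4C#2. The groups stood far apart relative to their spread. HMGB2 fell by 0.86 with Si-KDM4C#1 (SE 0.04, 1.82-fold, adjusted p = 1.6e-07, limma-trend) and rose by 1.28 with Si-KDM4C#2 (SE 0.04, 2.42-fold, adjusted p = 4.42e-08, limma-trend). Between the siRNAs it differed by 2.14 (95% interval 2.04 to 2.23, adjusted p = 2.12e-09, limma-trend), the largest difference of the 8 tested genes.

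HMGB3, an X-linked member known from stem and progenitor cells, lies at chrX:150980509-150990775 on the plus strand. It stood at 14.7, 17.2 and 17.4 FPKM in Scramble, at 17.0, 18.5 and 16.8 with Si-KDM4C#1 and at 18.2, 20.9 and 21.0 with Si-KDM4C#2. Its libraries lay close together, and only Scramble and Si-KDM4C#2 did not overlap. It rose by 0.27 with Si-KDM4C#2 (adjusted p = 0.0116, limma-trend), which was 0.17 after quantile normalization (adjusted p = 0.103). With Si-KDM4C#1 the difference was 0.08 (95% interval -0.09 to 0.26, adjusted p = 0.356, limma-trend), and quantile normalization turned it to -0.03 (adjusted p = 0.746). Between the siRNAs it was 0.19 (95% interval 0.02 to 0.36, adjusted p = 0.053, limma-trend). Without Scramble replicate 1, Si-KDM4C#1 replicate 2 or Si-KDM4C#2 replicate 1 this adjusted p was 0.0248, 0.0426 or 0.019.

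The HMGB genes summed to 85.6 ± 3.73 FPKM in Scramble, to 59.9 ± 2.89 with Si-KDM4C#1 and to 166 ± 1.51 with Si-KDM4C#2 (SD, n = 3). HMGB2 made up 53.8%, 41.6% and 68.1% of these sums.

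By level per length, the order in Scramble was HMGA1, HMGN4, HMGN3, HMGN2, HMGN1, HMGB2, HMGN5, HMGB1, HMGB3 and HMGA2. The libraries of HMGN4 and HMGN3 overlapped, and those of the other neighbours in the order did not. With Si-KDM4C#1 HMGN5 was 9th of the 10, above HMGA2 only, while HMGN3 and HMGN1 overlapped, as did HMGB1 and HMGB3. With Si-KDM4C#2 HMGN5 was 7th as in Scramble, and HMGN2 and HMGB2 came next after HMGA1.

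The number of ATGAAGA matches and the level differences of the HMG genes can be set side by side. With Si-KDM4C#1 the log2 differences were 0.37, -0.08, 0.45 and 1.16 for HMGN1, HMGN3, HMGN4 and HMGA1, which hold 0 matches. They were -0.56 and 0.08 for HMGN2 and HMGB3 with 1 match, 0.36 for HMGA2 with 2, -0.86 for HMGB2 with 3, -2.89 for HMGN5 with 4 and -0.38 for HMGB1 with 5.

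Over the tested genes whose transcript is 1000 to 3000 nucleotides long, the median log2 difference of Si-KDM4C#1 from Scramble was 0.18 for the 3000 genes with 0 matches, -0.00 for 1031 genes with 1, -0.17 for 279 with 2, -0.49 for 69 with 3 and -0.76 for 29 with 4 or more. For Si-KDM4C#2, whose seed is another, the medians of the same genes were 0.16, 0.10, 0.08, 0.10 and 0.10. HMGN5 is 1 of the 29. Transcripts with more matches also had less G and C. Among those with 30 to 45% GC, where HMGN5 lies with 33.8%, the medians with Si-KDM4C#1 were 0.04, -0.16, -0.39, -0.60 and -0.84, over 521, 344, 120, 42 and 16 genes, the last a thinly filled class. Counted in coding sequence only, the medians of transcripts of 1000 to 3000 nucleotides were 0.16, -0.01, -0.19, -0.38 and -0.76, over 3283, 848, 209, 47 and 21 genes. Over tested transcripts of any length the medians by number of matches were 0.16, -0.04, -0.20, -0.34 and -0.48 with Si-KDM4C#1. With Si-KDM4C#2 they fell too, less steeply, at 0.13, 0.05, -0.02, -0.04 and -0.08. The transcripts of HMGB1, HMGB3 and HMGA2 are longer than 3000 nucleotides and lie outside the range used above. The part of the matches in the level of HMGN5 or of any other HMG gene was not tested.

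**Figure D5:**
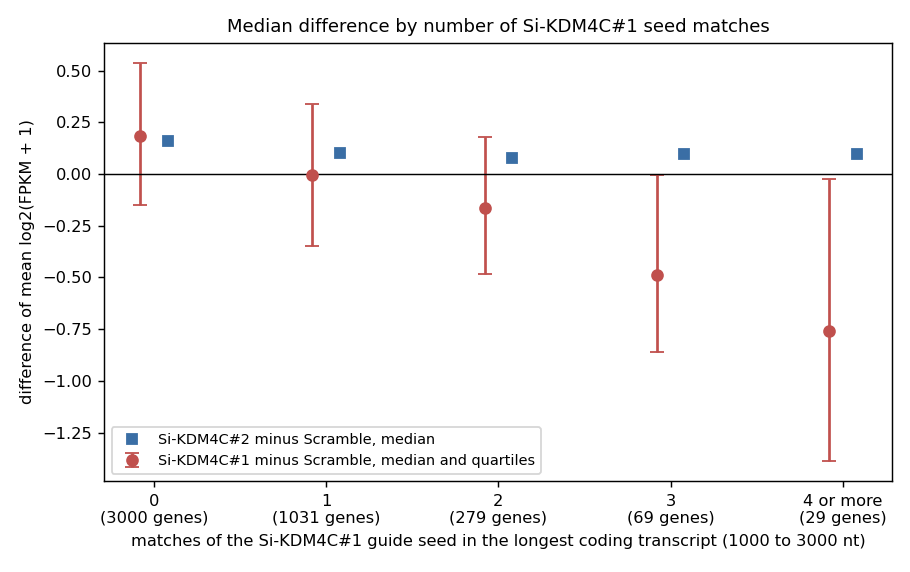
Median difference of log2(FPKM + 1) from Scramble (vertical axis) of tested genes with transcripts of 1000 to 3000 nucleotides, by the number of Si-KDM4C#1 seed matches (horizontal axis), with quartiles for Si-KDM4C#1. The medians run from 0.18 with 0 matches to -0.76 with 4 or more for Si-KDM4C#1, and from 0.16 to 0.10 for Si-KDM4C#2.

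Genes that work beside the HMG proteins were taken as lists. Of 27 other genes with an HMG box, 19 were tested. With Si-KDM4C#1, 6 rose, 5 fell and 8 did not pass an FDR of 0.05 (median 0.00), and with Si-KDM4C#2, 7 rose, 5 fell and 7 did not pass (median 0.08). The 11 and 12 of 19 past the limit stand beside 65.7% and 59.4% of all tested genes, whose medians were -0.03 and 0.06. SOX12 stood at 7.32 ± 0.455 FPKM in Scramble, at 18.6 ± 0.841 with Si-KDM4C#1 and at 15.4 ± 1.27 with Si-KDM4C#2, and it rose by 1.23 (adjusted p = 2.37e-07) and 0.98 (adjusted p = 1.74e-06, limma-trend). UBTF, the HMG-box factor of RNA polymerase I, rose by 1.08 with Si-KDM4C#2, from 16.1 to 35.1 FPKM (adjusted p = 1.02e-07, limma-trend), and by 0.14 with Si-KDM4C#1 (adjusted p = 0.0206). PBRM1, a subunit of the PBAF remodeller, fell by 0.88 with Si-KDM4C#1 (adjusted p = 9.42e-07, limma-trend), and with Si-KDM4C#2 the difference was -0.04 (adjusted p = 0.616). HBP1, a repressor, fell with both, with differences of -0.85 (adjusted p = 9.41e-07) and -0.59 (adjusted p = 1.76e-05, limma-trend).

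Linker histones share the binding of nucleosomes with HMGN proteins, and 4 of 8 were tested. With each siRNA 2 rose, 1 fell and 1 did not pass (medians 0.54 and 0.29), so 3 of 4 passed, beside 65.7% and 59.4% of all tested genes. H1F0 rose from 96.8 to 169 and 143 FPKM, by 0.80 (adjusted p = 3.48e-07) and 0.56 (adjusted p = 5.72e-06, limma-trend). H1FX rose from 69.6 to 130.4 and 148 FPKM, by 0.90 (adjusted p = 1.33e-06) and 1.08 (adjusted p = 7.57e-07, limma-trend). HIST1H1C fell from 80.2 to 31.3 and 63.6 FPKM, with differences of -1.33 (adjusted p = 7.76e-08) and -0.33 (adjusted p = 0.000932, limma-trend). HIST1H1E was low, at 1.18 to 1.65 FPKM as group means, and did not pass.

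All 14 genes of FACT and the histone chaperones were tested. With Si-KDM4C#1, 4 rose, 6 fell and 4 did not pass (median -0.05), and with Si-KDM4C#2, 8 rose, 3 fell and 3 did not pass (median 0.26). Thus 10 and 11 of 14 passed, beside 65.7% and 59.4% of all tested genes. Past the fold change of 2 were 4 genes with Si-KDM4C#1 (SUPT16H, ATRX, NAP1L1 and NPM1, each lower) and 0 with Si-KDM4C#2, beside 8.87% and 4.89% of all tested genes. SUPT16H, the large subunit of FACT, went from 27.9 FPKM in Scramble to 10.9 with Si-KDM4C#1 and 47.7 with Si-KDM4C#2, differences of -1.29 (adjusted p = 2.85e-08) and 0.75 (adjusted p = 1.18e-06, limma-trend). NAP1L1, a nucleosome assembly protein, went from 27.8 to 4.29 and 23.1 FPKM, and fell with both, with differences of -2.44 (adjusted p = 4.97e-09) and -0.26 (adjusted p = 0.00434, limma-trend). NPM1, the nucleolar chaperone, went from 416 to 106 FPKM with Si-KDM4C#1, a difference of -1.96 (adjusted p = 1.07e-08, limma-trend), and was at 431 FPKM with Si-KDM4C#2 (adjusted p = 0.448). The transcripts of SUPT16H, NAP1L1, ATRX and NPM1 held 9, 3, 7 and 4 ATGAAGA matches. Of the tested genes with a searched transcript, 9.94% held 3 or more and 4.87% held 4 or more. These 4 genes were picked by the size of their difference, and the part of the matches was not tested.

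Of 8 genes around LIN28, the IGF2BP proteins and let-7, which act on HMGA2, 5 were tested, and LIN28A, LIN28B and TRIM71 stayed under 1 FPKM as group means. With Si-KDM4C#1, 0 rose, 1 fell and 4 did not pass (median -0.02), and with Si-KDM4C#2, 2 rose, 1 fell and 2 did not pass (median 0.12). That is 1 and 3 of 5 past the limit, beside 65.7% and 59.4% of all tested genes. DICER1, which cuts microRNA precursors, fell by 1.02 with Si-KDM4C#1, from 12.9 to 5.87 FPKM (adjusted p = 4.34e-06, limma-trend), and stood at 13.2 FPKM with Si-KDM4C#2 (adjusted p = 0.797). IGF2BP1, an RNA-binding protein that stabilises mRNAs, rose by 0.58 with Si-KDM4C#2, from 11.2 to 17.3 FPKM (adjusted p = 0.000183, limma-trend). IGF2BP3 rose by 0.31, while ARID3B fell by 0.39, with Si-KDM4C#2 (adjusted p = 0.00884 and 0.00319, limma-trend).

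Of 13 receptors, partners and export factors of HMGB1, 9 were tested. With Si-KDM4C#1, 1 rose, 4 fell and 4 did not pass (median -0.03), and with Si-KDM4C#2, 5 rose, 2 fell and 2 did not pass (median 0.14). The 5 and 7 of 9 past the limit stand beside 65.7% and 59.4% of all tested genes. CD24, a surface protein that binds HMGB1, went from 49.7 to 42.8 and 23.9 FPKM and fell with both, with differences of -0.21 (adjusted p = 0.000757) and -1.03 (adjusted p = 6.18e-08, limma-trend). SET and ANP32A, acidic partners in a complex that holds HMGB2, fell with Si-KDM4C#1, with differences of -0.76 (adjusted p = 6.6e-07) and -0.80 (adjusted p = 3.72e-07, limma-trend). With Si-KDM4C#2 they rose by 0.31 (adjusted p = 0.00034) and 0.37 (adjusted p = 9.41e-05, limma-trend). AGER, the receptor RAGE, was low, at 1.47, 1.89 and 2.33 FPKM, and rose by 0.43 with Si-KDM4C#2 (adjusted p = 0.00892, limma-trend).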

How the data were processed

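The authors deposited FPKM per gene, 1 list for each of the 9 libraries, from paired-end Illumina sequencing. The submitters' processing notes name FastQC 0.11.5, HISAT2 2.1.0, StringTie 1.3.3b, featureCounts, DESeq 1.28.0 and GRCh38, without the role of each. The annotation release is not given in the sources used here. FPKM has no correction between libraries beyond their totals, so a few very abundant genes can shift all others.

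The 14363 genes that averaged 1 FPKM or more in any group entered a limma-trend fit (limma 3.58.1 under R 4.3.3, log2(FPKM + 1), moderated variances with a trend) of all 9 libraries, and p-values were adjusted over them by Benjamini-Hochberg. Limits were an FDR of 0.05 and a fold change of 2, as in the study. A fold change on this scale understates that of low genes. On simulated data with 200 changed genes among 14363, the fit found 198 (Si-KDM4C#1) and 199 (Si-KDM4C#2), with 3 and 1 false calls. Each planted change was 2 on the log2 scale, in genes with a Scramble mean over 2 on it. The noise was normal, and a call had to pass both limits. Smaller differences, like most of those of the HMG genes, and data in which most genes change were not simulated. FPKM multiplied by the exon length of GENCODE release 29 and a total per library gave whole numbers (within 0.05) for 97.3% to 97.5% of values above 0. These recovered fragments served for depth and for limma voom (at least 10 fragments in 3 libraries). A floor of 3 fragments is 0.166 to 0.206 FPKM for a gene of 1 kilobase and 0.0108 to 0.0133 FPKM for HMGA2. Such floors cover counting error only. Python 3.11.15 with pandas 2.3.3 served for the rest.

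The genes, lists and comparisons were chosen with earlier results of these data known. Named are all 10 HMG genes, KDM4C, the neighbours of HMGN5, the 5 genes most correlated with HMGN5 and, in each list, up to 4 tested genes with the largest difference from Scramble in either comparison. Alternatives were a pseudocount of 0.1, quantile normalization, all listed genes, genes with 1 FPKM or more throughout, the 6 libraries of a comparison, a block for the replicate number, leaving out each library, and, chosen after seeing the data, limma voom with and without the pseudogene rows added.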

Additional observations from a re-analysis of the deposited data

Results flagged for a closer look

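For 7 of the 8 tested genes the difference from Scramble was not the same with the siRNAs, by the test of Si-KDM4C#2 against Si-KDM4C#1 (limma-trend, FDR of 0.05, 62.4% of all tested genes). As Si-KDM4C#2 minus Si-KDM4C#1 on the log2(FPKM + 1) scale, the difference was 2.14 for HMGB2, 1.99 for HMGN2, 0.88 for HMGB1, 0.45 for HMGN3 and 0.14 for HMGN1, each higher with Si-KDM4C#2. It was -0.49 for HMGN4 and -0.29 for HMGA1, each higher with Si-KDM4C#1. With limma voom on the recovered fragments the difference of HMGN1 was 0.02 and did not pass the limit. All 3 libraries of each siRNA lay apart from those of the other for these 7 genes, as they did for 69.3% of all tested genes.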

How the results depend on the processing

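Of 245 values of the HMG genes and KDM4C under other settings, leaving out a library apart, 228 stayed. To stay means the same direction and side of the limit or, for HMGN5, which carries no test, a move within 1 SD. Besides these, 8 descriptive values of HMGN5 moved by more than 1 SD, 5 gained a call, 3 lost it and 1 changed sign. Other gene filters, the 6 libraries of a comparison and the replicate block cannot move a log2 difference. There only an adjusted p could change. Over all settings and left-out libraries the difference of HMGN5 from Scramble lay between -3.17 and -2.83 for Si-KDM4C#1 and between 0.44 and 0.60 for Si-KDM4C#2. The changed sign was that of HMGB3 with Si-KDM4C#1, at -0.033 after quantile normalization. Of the values without 1 library, 283 stayed, 3 gained a call and 2 lost it, and these calls gained or lost were all of HMGB3 or HMGA2. Leaving out a library of the group that is not compared cannot move the log2 difference either. The number of HMG genes past both limits with Si-KDM4C#1 was 1, and 2 with quantile normalization, with limma voom and with limma voom after adding the pseudogene rows. The added gene was HMGB2 after quantile normalization and HMGA2, which limma voom also tested, in the others. Over all genes the number past both limits moved by more than 1.5 times, from 1274 to 2302 with a pseudocount of 0.1 and 3104 with limma voom for Si-KDM4C#1, from 703 to 1443 and 2054 for Si-KDM4C#2, and from 992 to 1937 and 2649 between the siRNAs.

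The labels do not say whether the same replicate number pairs libraries, and these values did not settle it. Deviations from the group means correlated by 0.016 on average over 9 pairs with the same number (-0.055 to 0.079). Over 18 pairs with another number the average was -0.008 (-0.055 to 0.076). Of the 9 libraries, 5 correlated best with their own number. With the replicate number as a block, the HMG genes past an FDR of 0.05 were 6, 7 and 8 in the 3 comparisons. The added gene was HMGB3 between the siRNAs (adjusted p = 0.016, limma-trend), and the block changed no other call among the HMG genes. Depth bears most on HMGA2, with 159 fragments in Scramble.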
